A study of Mus musculus with 4 samples.

Results

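The genes described here handle iron and heme: Hmox1 and Blvrb break heme down, Slc40a1 and Cp act in iron export, Tfrc and Slc11a1 carry iron inward or out of the phagosome, and Fth1 and Ftl1 store it. They were taken by symbol from the gene table of a single-cell RNA sequencing study of tumour-infiltrating CD45+ cells. Of the 8 symbols, 7 were among the 12584 genes of the table, and the expression of Ftl1 was not analysed here. The 7 genes were followed by annotated cell class and by library.

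Macrophages take up dying cells, degrade their heme with heme oxygenase-1 (Hmox1) to iron, carbon monoxide and biliverdin, and then either store the iron in ferritin or release it through ferroportin (Slc40a1), the known cellular iron exporter of mammals. Transferrin receptor 1 (Tfrc) brings iron-loaded transferrin into the cell, and its messenger RNA is stabilised when iron is scarce. The same iron regulatory proteins that bind the Tfrc transcript block translation of the ferritin and ferroportin transcripts when iron is scarce, so that for these genes the RNA level and the protein level can part.

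The tumours were YUMM1.7-OVA RTT melanomas, grown from a C57BL/6-derived mouse line that carries ovalbumin and had acquired resistance to targeted therapy, and the hosts were Rag2-/- mice without T or B cells of their own. In every group OT-1 CD8+ T cells were transferred on day 7 (adoptive cell therapy, ACT), tumours were taken on day 10, 72 h later, and live CD45+ cells of 3 pooled tumours gave 1 library. The control (CTRL) was RTT with an mCherry vector. IRF3/7 was RTT in which the cancer cells, not the sorted cells, overexpressed Irf3 and Irf7. COX2i was RTT mCherry under celecoxib, an inhibitor of cyclooxygenase-2, and COX2i + 5-AZA was the same under celecoxib with 5-Azacytidine, an inhibitor of DNA methyltransferases. The mice were 6 to 12 weeks old by the study's methods, with no age given for a single group. The comparisons asked how cancer-cell interferon signalling and prostaglandin synthesis set the state of the myeloid cells. With 1 library per group there was no replicate error and no test, and each interval below is an exact 95% interval that covers the error of counting and nothing else. The C57BL/6 strain is known to carry a loss-of-function allele of Slc11a1, so that its transcript can be counted where its transporter does not work.

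Iron-responsive elements (IREs), the hairpins that iron regulatory proteins bind, were read from the transcripts because they separate the members whose RNA or translation is known to follow iron from those without such a hairpin. The search took an unpaired C, a stem of 5 paired bases that allowed G-T pairs and the loop CAGTGN, on the transcript strand only. It found 1 hairpin in the 5′ untranslated region (UTR) of Fth1, Ftl1 and Slc40a1, all in exon 1, and 4 in the 3′ UTR of Tfrc. Each is printed 5′ to 3′ over 29 bases, with the 6 bases of the loop in capitals.
Fth1 5′ UTR: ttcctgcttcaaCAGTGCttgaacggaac
Ftl1 5′ UTR: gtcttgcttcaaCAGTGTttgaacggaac
Slc40a1 5′ UTR: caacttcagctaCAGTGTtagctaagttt
Tfrc 3′ UTR copy 1: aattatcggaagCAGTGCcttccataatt
Tfrc 3′ UTR copy 2: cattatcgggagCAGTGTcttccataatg
Tfrc 3′ UTR copy 3: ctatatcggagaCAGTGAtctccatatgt
Tfrc 3′ UTR copy 4: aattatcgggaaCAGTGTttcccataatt
In GRCm38 the Fth1 hairpin lies at chr19:9982732-9982760 on the plus strand, the Ftl1 hairpin at chr7:45459779-45459807 and the Slc40a1 hairpin at chr1:45925465-45925493, both on the minus strand. The Tfrc copies lie on the plus strand of chr16 in exon 19, at 32631219-32631247, 32631598-32631626, 32631663-32631691 and 32631710-32631738. Of the mouse genes with an annotated 5′ UTR, 31 of 20916 (0.148%) held such a hairpin there, and of those with a 3′ UTR, 129 of 21042 (0.613%) did. No match was found in Hmox1, Blvrb, Cp or Slc11a1, which says only that these letters are not in their UTRs.

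The 4 libraries held 34447 cells in 17 annotated classes, from 6329 cells in IRF3/7 to 10032 in COX2i + 5-AZA, and from 26356819 unique molecular identifiers (UMIs) in IRF3/7 to 78722763 in COX2i. In a whole library 3 UMIs were worth 0.0381 to 0.114 CPM, the UMIs of a gene per 1000000 UMIs of the same cells. No full cell barcode was shared, but 10018 cells had a gel-bead barcode that occurred in more than 1 library, as the multiplexing by probe barcode allows. Monocytes and macrophages, 9 classes together, made up 7614, 5035, 7378 and 8801 cells of CTRL, IRF3/7, COX2i and COX2i + 5-AZA, and their mix differed strongly: 7475 of the CTRL cells were macrophages and 4596 of the IRF3/7 cells were monocytes. Only Infl_Mono, cDC2 and Myofibrobl, a class of sorted cells with stromal markers, held at least 50 cells in all 4 libraries, and IRF3/7 held 7 TAM_C1q, 10 TAM_Spp1 and 20 TAM_cycling cells. The markers of 14 classes were highest in their own class, those of TAM_cycling were higher in T_CD8, those of TAM_H2Ab1 in cDC2 and those of Monocyte_1 in Monocyte_3 and Infl_Mono. The 93 CTRL cells annotated Infl_Mono carried the 7 TAM_C1q markers at 79.8% of the level in CTRL TAM_C1q cells, against 19.0% in COX2i + 5-AZA, and the 65 CTRL cells annotated Neutro carried them at 55.9%, against 13.9%. These figures apply to every CTRL value of Infl_Mono and Neutro below and to every ratio that has one as its reference, and their part in those values was not tested. Of 6 red-cell genes only Hbb-bs was in the table, at no more than 5.56 CPM in any macrophage class.

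**Figure D1:**
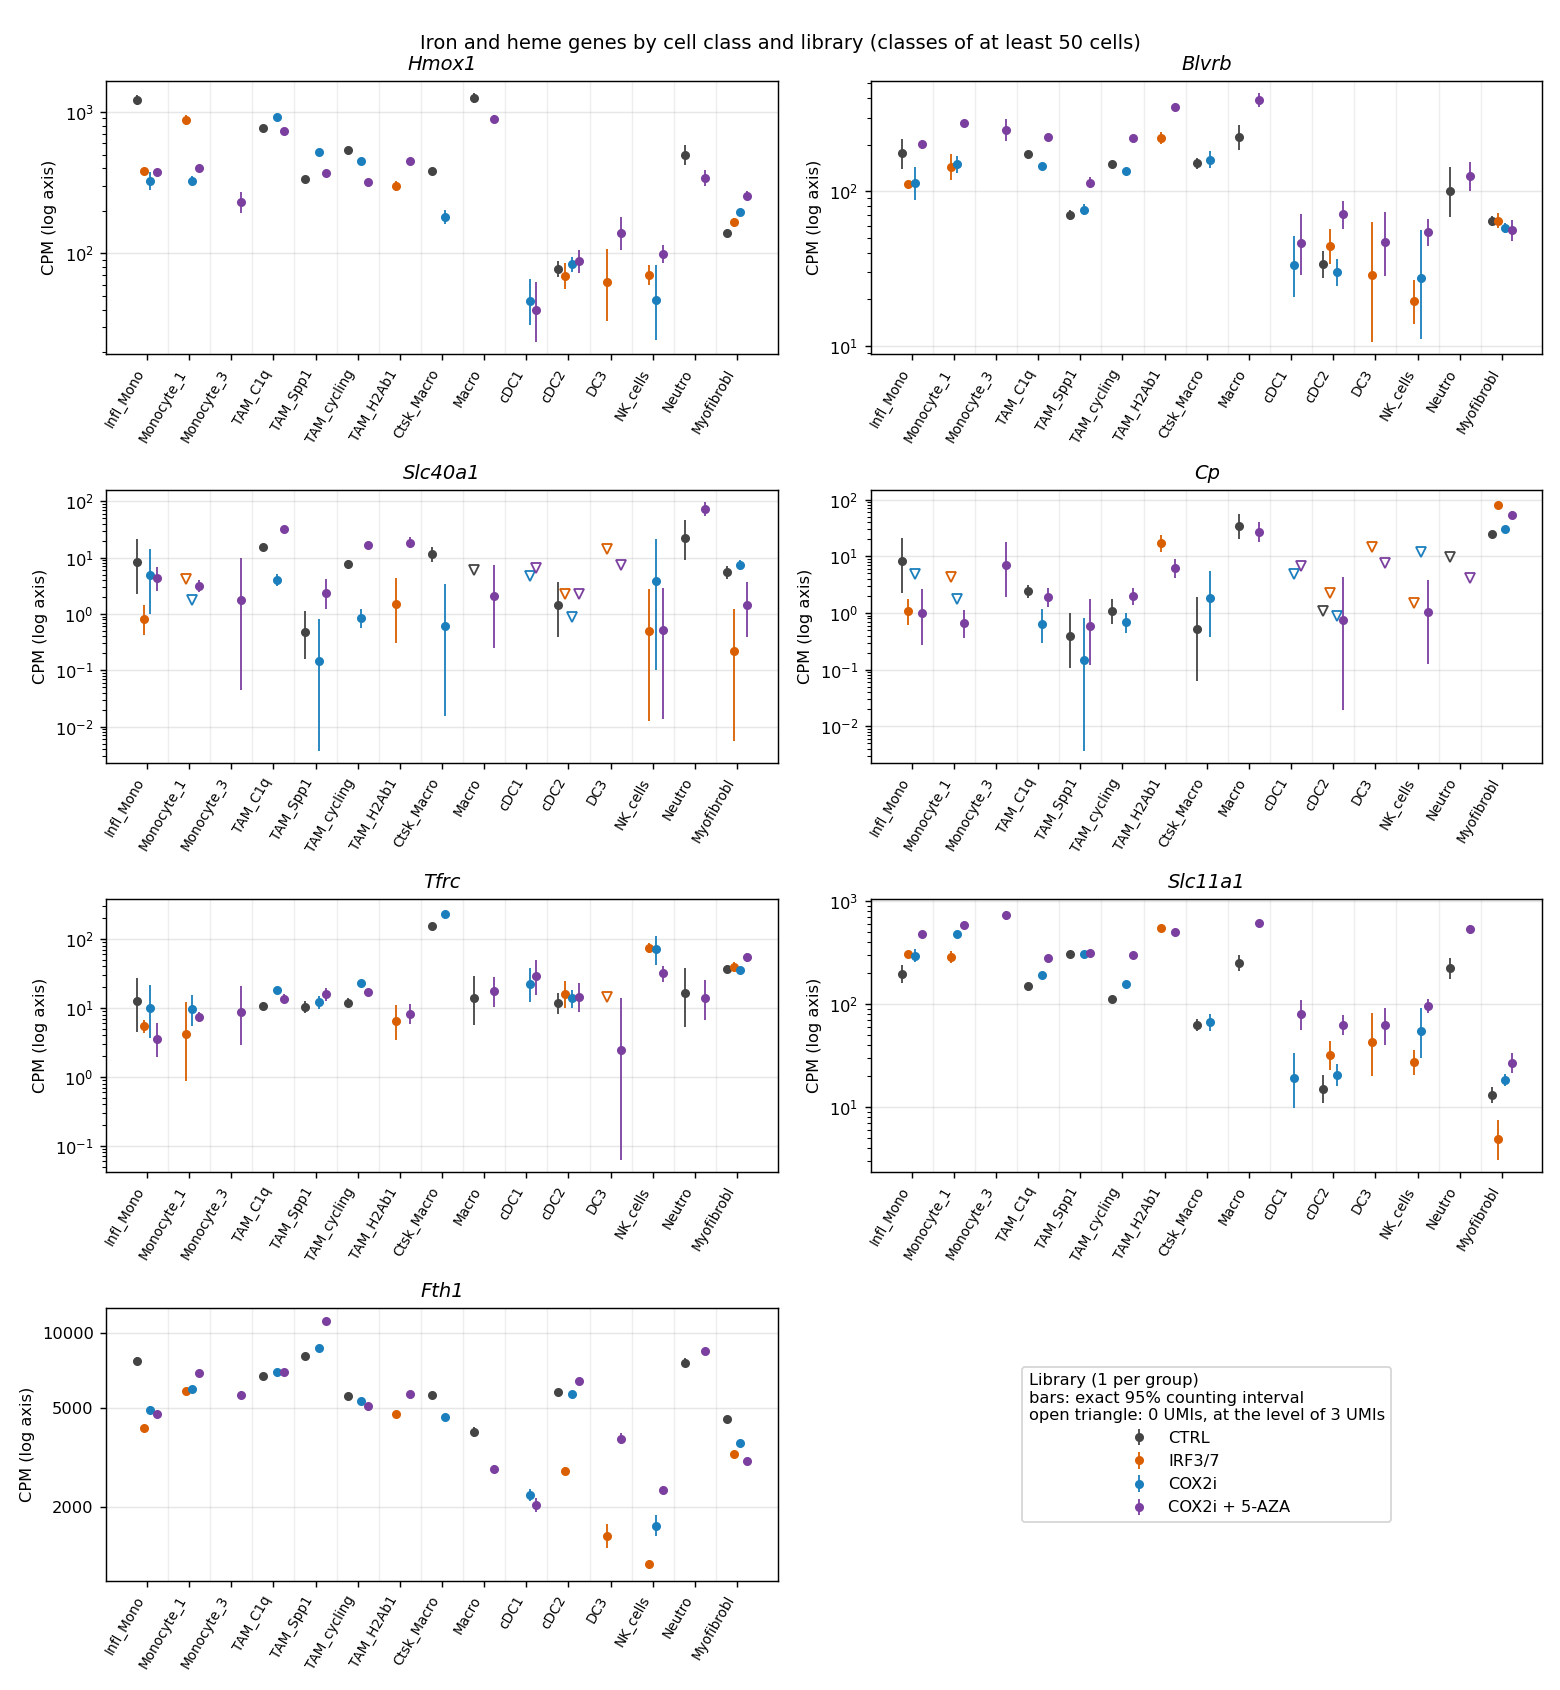
Level of each gene (CPM, logarithmic axis) in each class of at least 50 cells, 1 point per library with its exact 95% counting interval, and an open triangle at the level of 3 UMIs where none was counted. Tfrc peaks in Ctsk_Macro at 157 and 229 CPM, Cp in Myofibrobl at 24.6 to 80.5 CPM, and Slc40a1 spreads over a wide range within the same class.

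Hmox1, on chr8:75093621-75100589 (plus strand), encodes the inducible heme oxygenase and was counted in macrophages, monocytes and neutrophils. By the mean over libraries it was highest in the class Macro, at 1250.3 CPM in CTRL and 897 CPM in COX2i + 5-AZA, followed by TAM_C1q at 767, 919 and 735 CPM in CTRL, COX2i and COX2i + 5-AZA. The ranges of these classes overlapped, and those of monocytes and other macrophages reached into them or lay below. Neutro stood at 496 CPM in CTRL and 343 CPM in COX2i + 5-AZA, and Monocyte_1 at 876, 325 and 404 CPM in IRF3/7, COX2i and COX2i + 5-AZA. Macro and TAM_C1q lay above Myofibrobl, where Hmox1 was at 139.7, 165, 197 and 255 CPM in CTRL, IRF3/7, COX2i and COX2i + 5-AZA, and above cDC2 at 69.4 to 88.4 CPM and cDC1 at 46.1 and 39.8 CPM. In natural killer (NK) cells, lymphoid cells taken here as a measure of background, it was at 47.0 to 99.1 CPM, and 4.90% to 6.76% of NK cells held a UMI once each cell was thinned to 1500 UMIs. The share of TAM_C1q cells was 46.4%, 42.7% and 44.6% in CTRL, COX2i and COX2i + 5-AZA, at median depths of 6857 to 9345 UMIs against 2606 to 2674.5 in NK cells. Without thinning these TAM_C1q shares were 83.8%, 78.5% and 85.4%.

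In COX2i the sum of Hmox1 over TAM_C1q lay above CTRL while the typical cell lay below. The ratio of the sums was 0.26 on the log2 scale (0.23 to 0.29) in TAM_C1q and 0.63 (0.56 to 0.70) in TAM_Spp1, where the level was 338 CPM in CTRL and 523 CPM in COX2i. The median cell of TAM_C1q nevertheless stood at 378 CPM in CTRL and 312 CPM in COX2i, and the median cell of TAM_Spp1 at 183 and 161 CPM. The upper end moved the other way. The 95th percentile of cells was 1552 CPM in CTRL and 2576 CPM in COX2i in TAM_C1q, and 1321 and 1942 CPM in TAM_Spp1. The top 5% of TAM_C1q cells held 46.0% of its Hmox1 UMIs in CTRL, 53.5% in COX2i and 41.0% in COX2i + 5-AZA, and for TAM_Spp1 these shares were 36.2%, 56.5% and 43.0%. Few cells with much Hmox1 thus carried the higher sum: 80 of 2023 COX2i TAM_C1q cells held 50% or more of its Hmox1 UMIs, where 218 of 3199 did in CTRL. In TAM_cycling both the sum (536 CPM in CTRL, 447 CPM in COX2i, 318 CPM in COX2i + 5-AZA) and the median cell (262, 189.5 and 176 CPM) were lower in the treated libraries. Ctsk_Macro was lower too, at 381 CPM in CTRL and 181 CPM in COX2i.

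**Figure D2:**
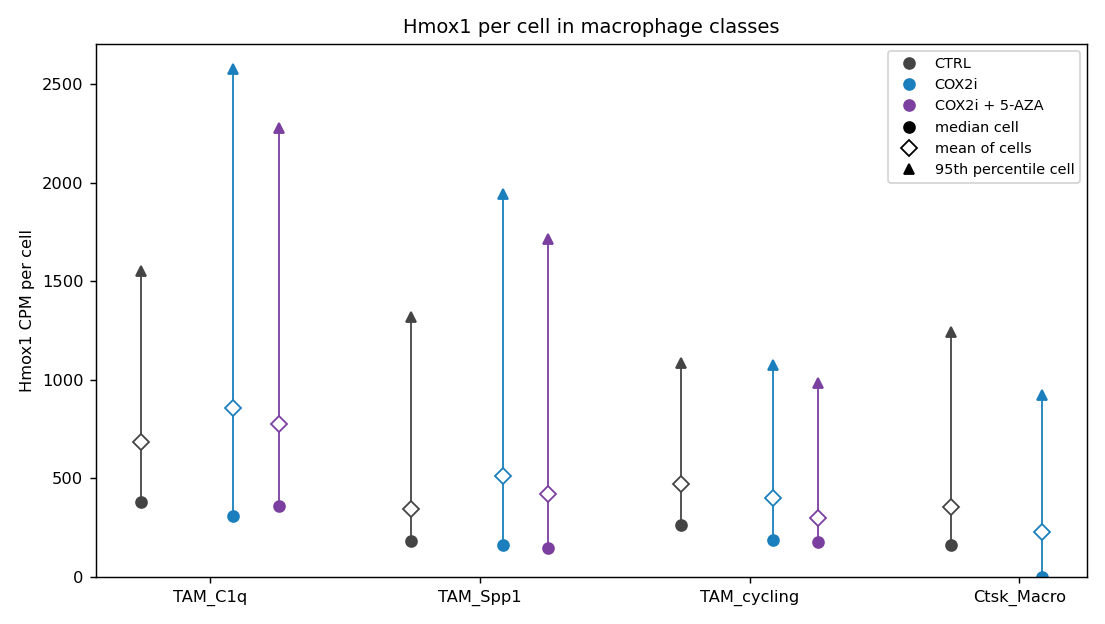
Hmox1 per cell (CPM) in macrophage classes of at least 50 cells in CTRL, COX2i and COX2i + 5-AZA (Ctsk_Macro in CTRL and COX2i), as the median cell, the 95th percentile of cells and the mean over cells. In TAM_C1q the median cell is at 378, 312 and 360 CPM while the 95th percentile is at 1552, 2576 and 2281 CPM.

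In Infl_Mono Hmox1 was at 1218 CPM in CTRL and at 383, 326 and 377 CPM in IRF3/7, COX2i and COX2i + 5-AZA. The CTRL value rests on few cells. In CTRL 2 of its 93 cells held at least 50% of the 590 UMIs, and the median cell stood at 276 CPM against 119, 106 and 169 CPM in the other libraries. These are also the CTRL cells with TAM_C1q markers at 79.8% of the TAM_C1q level, and the part of those markers in the Hmox1 value was not tested. Monocyte_1 of IRF3/7 was alike in this: 876 CPM in the sum, with 7 of 251 cells holding at least 50% of its Hmox1 UMIs and a median cell at 0.

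Blvrb, on chr7:27447978-27466144 (plus strand), encodes biliverdin reductase B, a cytosolic reductase of heme breakdown products and flavins. It was highest in Macro, at 224 CPM in CTRL and 388 CPM in COX2i + 5-AZA, and in TAM_H2Ab1, at 221 CPM in IRF3/7 and 352 CPM in COX2i + 5-AZA. In the large macrophage classes COX2i + 5-AZA was the highest library each time. The levels in CTRL, COX2i and COX2i + 5-AZA were 175, 146 and 223 CPM in TAM_C1q, 70.3, 76.1 and 114 CPM in TAM_Spp1, and 150.2, 135 and 221 CPM in TAM_cycling. Against COX2i alone the combination was higher by 0.61 (0.53 to 0.69), 0.58 (0.40 to 0.75) and 0.72 (0.66 to 0.78) on the log2 scale in these 3 classes, by 0.88 (0.69 to 1.07) in Monocyte_1 and by 1.25 (0.83 to 1.67) in cDC2. Myofibrobl did not share this: Blvrb was at 64.1, 64.7, 58.2 and 56.1 CPM there in CTRL, IRF3/7, COX2i and COX2i + 5-AZA, a difference of -0.05 (-0.31 to 0.20) between the combination and COX2i. Across classes and libraries Blvrb and Hmox1 ran together, with Pearson r = 0.81 and Spearman rho = 0.755 over 40 class-by-library sums of log2(CPM + 1), a description of sums that share libraries and cell classes.

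Slc40a1, on chr1:45908068-45926523 (minus strand), encodes ferroportin. It was the gene of the set that differed most between libraries, and it was a rare transcript throughout. Over all monocytes and macrophages it was at 9.82 CPM in CTRL (537 UMIs), 1.74 CPM in IRF3/7 (31 UMIs), 1.58 CPM in COX2i (99 UMIs) and 13.8 CPM in COX2i + 5-AZA (942 UMIs). CTRL and the combination were high, IRF3/7 and COX2i alone were low. The COX2i library was 6.21-fold lower than CTRL (log2 ratio -2.63, -2.96 to -2.32), and the combination was 8.70-fold higher than COX2i alone (3.12, 2.82 to 3.43). Across all genes counted, 0.286% had a lower ratio of COX2i to CTRL, and 99.4% had a lower ratio of the combination to COX2i.

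The same order held inside the 2 classes that carried most of the signal. In TAM_C1q Slc40a1 was at 15.5 CPM in CTRL, 4.02 CPM in COX2i and 32.4 CPM in COX2i + 5-AZA, and in TAM_cycling at 7.68, 0.850 and 17.1 CPM. The ratio of COX2i to CTRL was -1.95 (-2.35 to -1.56) in TAM_C1q and -3.18 (-3.80 to -2.59) in TAM_cycling on the log2 scale, and that of the combination to COX2i was 3.01 (2.63 to 3.42) and 4.33 (3.79 to 4.92). With the class shares of CTRL the COX2i ratio over all monocytes and macrophages was -2.15. Ctsk_Macro, the macrophage class named for cathepsin K, had 44 UMIs in CTRL (11.5 CPM) and 1 UMI in COX2i (0.614 CPM), a log2 ratio of -4.23 (-9.57 to -1.68). TAM_Spp1 was near the floor in every library, at 0.484, 0.146 and 2.38 CPM from 5, 1 and 12 UMIs. TAM_H2Ab1 had 1.48 CPM in IRF3/7 and 18.4 CPM in COX2i + 5-AZA, where 3 of 419 cells held at least 50% of the 80 UMIs and 1 of them 25, and Monocyte_1 had 0 UMIs in IRF3/7 and COX2i and 67 UMIs (3.18 CPM) in COX2i + 5-AZA. TAM_Spp1 was thus almost without the transcript in libraries whose TAM_C1q and TAM_cycling cells held it.

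Ferroportin transcripts were concentrated in few cells. In TAM_C1q 210 of 3199 cells held the 363 UMIs of CTRL, 28 of 2023 cells the 64 UMIs of COX2i and 183 of 1379 cells the 454 UMIs of COX2i + 5-AZA, with up to 19 UMIs in a cell. In the combination 29 of these cells held at least 50% of the UMIs. After thinning each cell to 1500 UMIs, 2.00% (1.54% to 2.55%) of CTRL, 0.450% (0.206% to 0.852%) of COX2i and 3.61% (2.68% to 4.74%) of COX2i + 5-AZA TAM_C1q cells held a UMI. Without thinning the shares were 6.56%, 1.38% and 13.3%. Among NK cells, thinned the same way, 0 of 510 in IRF3/7 and 0 of 355 in COX2i + 5-AZA held one, which by the limit of 3 counts allows shares of cells with a UMI of up to 0.588% and 0.845%. The combination thus lay above the limit from its own NK cells. For CTRL and COX2i, with 11 and 50 NK cells, no such limit was set. Without thinning the NK cells of IRF3/7, COX2i and COX2i + 5-AZA held 1 Slc40a1 UMI in each library.

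**Figure D3:**
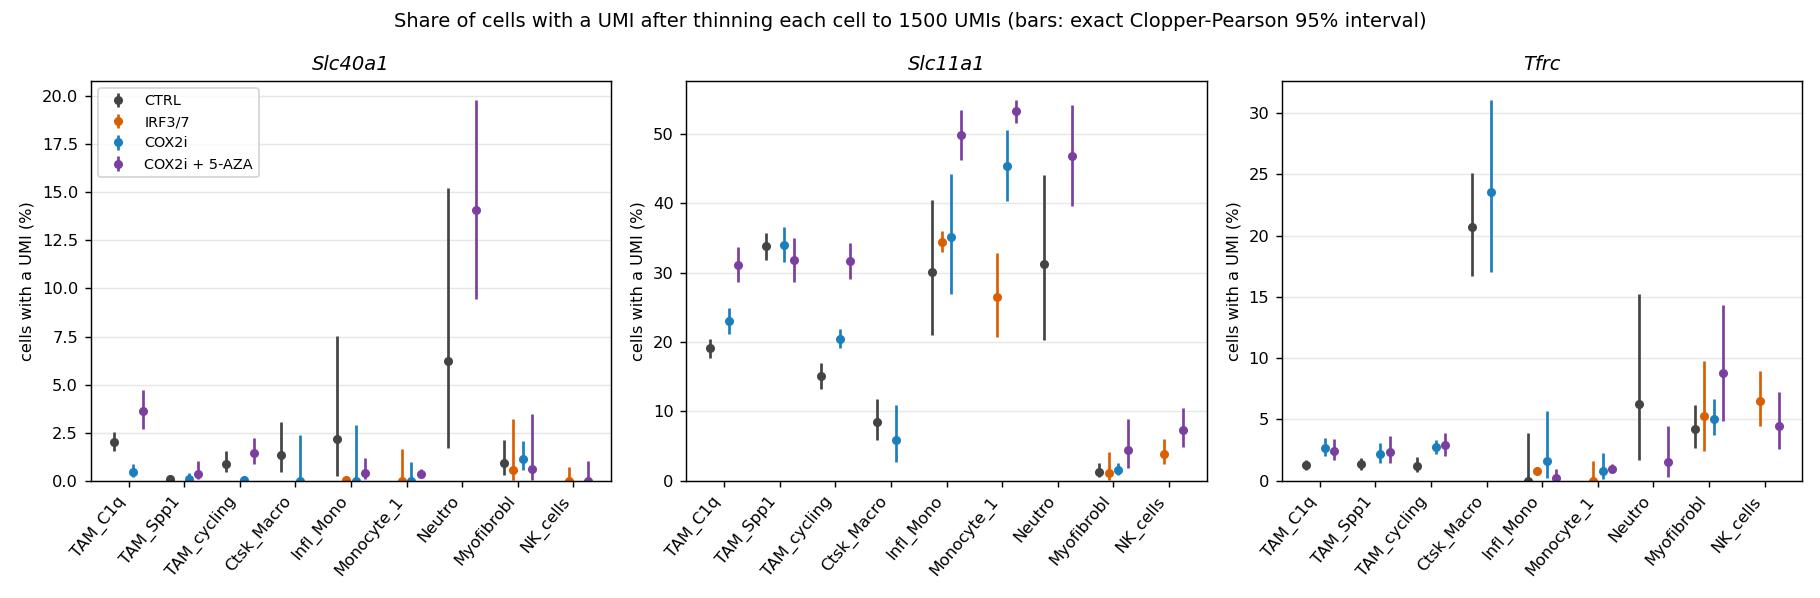
Share of cells (%) with at least 1 UMI after thinning every cell to 1500 UMIs, by class and library, with exact Clopper-Pearson 95% intervals. For Slc40a1 the TAM_C1q shares are 2.00%, 0.450% and 3.61% in CTRL, COX2i and COX2i + 5-AZA, and for Slc11a1 they are 19.1%, 23.0% and 31.1%.

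Outside the macrophages Slc40a1 reached its highest levels in Neutro, at 22.7 CPM in CTRL (7 UMIs in 65 cells) and 73.6 CPM in COX2i + 5-AZA (53 UMIs in 45 of 196 cells), a log2 ratio of 1.7 (0.56 to 3.08). Relative to TAM_C1q of the same library Neutro held 146% and 227% of the Slc40a1 level, and 55.9% and 13.9% of the level of the 7 TAM_C1q markers. The high value of the combination came from cells with few detected genes. Of the 65 and 196 Neutro cells, 33 and 27 had more than 2000 detected genes, and in these Slc40a1 was at 17.2 CPM (4 UMIs) in CTRL and 21.3 CPM (6 UMIs) in COX2i + 5-AZA, against 15.7 and 32.5 CPM in TAM_C1q cells chosen the same way. In Myofibrobl the pattern was another one, at 5.50 CPM in CTRL, 0.223 CPM (1 UMI) in IRF3/7, 7.52 CPM in COX2i and 1.42 CPM in COX2i + 5-AZA. Here COX2i was not below CTRL (0.45, -0.06 to 0.97), and the combination was below both, by -1.95 (-3.88 to -0.51) against CTRL and -2.40 (-4.31 to -1.0) against COX2i.

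In IRF3/7 the low level could not be told apart from the loss of the classes that carry the gene. Of its 31 UMIs in monocytes and macrophages, 12 came from 5 of 4335 Infl_Mono cells (0.815 CPM), 12 from 2 of 20 TAM_cycling cells (78.6 CPM), 4 from 1 of 7 TAM_C1q cells and 3 from 2 of 385 TAM_H2Ab1 cells. Weighting the classes as in CTRL turned the log2 ratio from -2.50 to 3.26, a value that rests on those 2 TAM_cycling cells. Infl_Mono, the one monocyte class that both libraries held in number, had 4 UMIs in CTRL.

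Cp, on chr3:19957054-20009145 (plus strand), encodes ceruloplasmin, the copper ferroxidase that oxidises exported iron for loading onto transferrin. It was mostly counted in Myofibrobl and hardly in the large macrophage classes. Myofibrobl held it at 24.6 CPM in CTRL, 80.5 CPM in IRF3/7, 30.3 CPM in COX2i and 53.3 CPM in COX2i + 5-AZA, and contributed 69.5%, 85.3%, 88.9% and 50.3% of all Cp UMIs of these libraries from 6.19%, 2.72%, 10.0% and 1.59% of the cells. IRF3/7 and the combination were above CTRL by 1.71 (1.47 to 1.95) and 1.12 (0.81 to 1.42) on the log2 scale. The IRF3/7 value rests on few cells, since 5 of 172 cells held at least 50% of its 361 UMIs and 1 of them 68 UMIs. After thinning, 10.5% (6.36% to 16.1%) of IRF3/7 and 3.46% (2.10% to 5.35%) of CTRL Myofibrobl cells held a Cp UMI.

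The class Macro was the other Cp-rich class, at 34.3 CPM in CTRL and 27.2 CPM in COX2i + 5-AZA, and TAM_H2Ab1 followed at 17.3 CPM in IRF3/7 and 6.22 CPM in the combination. In Macro the 5 Myofibrobl markers were at 1.30% and 0.478% of their Myofibrobl level, whereas Cp was at 139% and 51.0% of its Myofibrobl level. In TAM_C1q Cp was at 2.43 CPM (57 UMIs) in CTRL, 0.628 CPM (10 UMIs) in COX2i and 1.93 CPM (27 UMIs) in COX2i + 5-AZA. In the COX2i TAM_C1q cells Cp stood at 2.07% of its Myofibrobl level and the Myofibrobl markers at 2.35% of theirs, so that this value is no higher than the stromal markers found in the same cells. The corresponding values were 9.88% against 3.29% in CTRL and 3.62% against 0.906% in the combination.

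Tfrc, on chr16:32608920-32632794 (plus strand), encodes the transferrin receptor. It was highest in Ctsk_Macro, at 157 CPM in CTRL and 229 CPM in COX2i, with no overlap with any other class of at least 50 cells. These cells were 4.24% and 1.72% of the 2 libraries and held 38.1% and 18.0% of their Tfrc UMIs. The next class was NK cells, at 74.1 CPM in IRF3/7, 70.6 CPM in COX2i (50 cells) and 31.6 CPM in COX2i + 5-AZA, and then Myofibrobl at 37.0, 39.5, 35.2 and 54.0 CPM in CTRL, IRF3/7, COX2i and COX2i + 5-AZA. NK cells and Ctsk_Macro thus stood above the other macrophages, where Tfrc was at 10.4 to 22.6 CPM in TAM_C1q, TAM_Spp1, TAM_cycling and Macro and at 6.43 and 8.29 CPM in TAM_H2Ab1 of IRF3/7 and COX2i + 5-AZA. Monocytes overlapped with these, at 3.55 to 12.4 CPM in Infl_Mono and 4.24 to 9.58 CPM in Monocyte_1.

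Inside TAM_C1q and TAM_cycling Tfrc was higher in both treated libraries than in CTRL, which for the combination the pooled value does not show. TAM_C1q held it at 10.7, 18.1 and 13.7 CPM and TAM_cycling at 11.9, 22.6 and 16.9 CPM in CTRL, COX2i and COX2i + 5-AZA. COX2i was above CTRL by 0.76 (0.51 to 1.00) and 0.93 (0.70 to 1.17), and the combination by 0.35 (0.07 to 0.62) and 0.51 (0.25 to 0.78). TAM_Spp1 stood at 10.4, 12.1 and 15.7 CPM, with 0.22 (-0.21 to 0.64) for COX2i and 0.59 (0.15 to 1.02) for the combination. Over all monocytes and macrophages the combination was nevertheless 1.67-fold below CTRL, at 12.7 against 21.2 CPM, with 37 Ctsk_Macro cells against 380 and 4684 monocytes against 139. With the class shares of CTRL its log2 ratio was 0.25 in place of -0.74. Ctsk_Macro of COX2i was above that of CTRL by 0.55 (0.36 to 0.74). Among the macrophage classes COX2i was above CTRL for Tfrc by intervals that leave out 0 in TAM_C1q, TAM_cycling and Ctsk_Macro. There it was below CTRL for Slc40a1. The combination did not share this: in TAM_C1q and TAM_cycling it was above CTRL for Tfrc and for Slc40a1 too. Its Slc40a1 log2 ratios to CTRL there were 1.07 (0.87 to 1.27) and 1.16 (0.85 to 1.47).

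Slc11a1, on chr1:74375195-74386062 (plus strand), encodes NRAMP1, a divalent metal transporter of the phagosome membrane. It was counted in monocytes, neutrophils and macrophages. Among the high levels were 727 CPM in Monocyte_3 and 609 CPM in Macro of COX2i + 5-AZA, 547 and 506 CPM in TAM_H2Ab1 of IRF3/7 and COX2i + 5-AZA, and 288, 478 and 585 CPM in Monocyte_1 of IRF3/7, COX2i and COX2i + 5-AZA. In Infl_Mono it was at 196, 309.8, 296 and 477 CPM in CTRL, IRF3/7, COX2i and COX2i + 5-AZA, in Neutro at 223 and 536 CPM in CTRL and COX2i + 5-AZA, and Macro of CTRL held 252 CPM. Ctsk_Macro was low for a macrophage class, at 62.9 and 67.0 CPM, and Myofibrobl lowest, at 13.1, 4.91, 18.5 and 27.0 CPM.

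Slc11a1 was higher in the combination than in CTRL in TAM_C1q and TAM_cycling, at nearly the same level in TAM_Spp1. TAM_C1q held 149, 192 and 278 CPM and TAM_cycling 112, 156 and 301 CPM in CTRL, COX2i and COX2i + 5-AZA, so that COX2i lay between the others in both. The combination was above CTRL by 0.90 (0.83 to 0.97) and 1.42 (1.34 to 1.50), and COX2i by 0.36 (0.29 to 0.43) and 0.48 (0.40 to 0.56). In TAM_Spp1 the levels were 309.9, 307 and 314 CPM, and the differences from CTRL were -0.01 (-0.09 to 0.07) and 0.02 (-0.07 to 0.11), intervals that leave out the sizes seen in TAM_C1q. The shares of thinned cells ran the same way, with 19.1%, 23.0% and 31.1% in TAM_C1q, 15.1%, 20.5% and 31.6% in TAM_cycling and 33.8%, 34.0% and 31.8% in TAM_Spp1. Without thinning they were 51.5%, 63.8% and 77.4%, 56.1%, 65.9% and 85.7%, and 59.4%, 60.8% and 57.9%. In Myofibrobl cells, at median depths of 11036 to 20862.5 UMIs, the thinned shares were 1.17% to 4.40%.

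Fth1, on chr19:9980598-9985098 (plus strand), encodes the ferritin heavy chain, which oxidises iron for storage. The gene has processed pseudogenes, and whether a probe pair also captured RNA of a copy could not be told from the counts, so its values are uncertain to that extent. Fth1 was highest in TAM_Spp1, at 8070.4, 8683 and 11151 CPM in CTRL, COX2i and COX2i + 5-AZA, and in Neutro, at 7563 and 8439 CPM in CTRL and COX2i + 5-AZA. TAM_C1q varied little, at 6694, 6922 and 6919 CPM, and so did TAM_cycling, at 5546, 5306 and 5078 CPM. NK cells were lowest by the mean over libraries, at 1175, 1678 and 2342 CPM in IRF3/7, COX2i and COX2i + 5-AZA, and their range overlapped with that of cDC1, at 2226 and 2032 CPM in COX2i and COX2i + 5-AZA. In TAM_Spp1 the combination was above CTRL by 0.47 (0.45 to 0.48) and above COX2i by 0.36 (0.34 to 0.38). Macro differed the other way, at 3995 CPM in CTRL and 2842 CPM in the combination (-0.49, -0.58 to -0.41), and Ctsk_Macro was at 5629 CPM in CTRL and 4570.0 CPM in COX2i (-0.30, -0.34 to -0.26). In cDC2, a class all 4 libraries held in number, Fth1 was at 5759, 2787, 5683 and 6376 CPM in CTRL, IRF3/7, COX2i and COX2i + 5-AZA, so that IRF3/7 stood apart from the other 3 libraries at a log2 ratio of -1.05 (-1.10 to -1.0) to CTRL.

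Over all monocytes and macrophages a gene was counted as different where its CPM differed at least 2-fold between 2 libraries, taking genes that reached 20 UMIs over the pair. All 7 members passed this minimum in all 4 comparisons. CTRL serves as the reference of 3 comparisons and COX2i takes part in 2, so that the comparisons are not independent of each other. Without replicate libraries these counts describe the libraries and not the conditions.

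Between IRF3/7 and CTRL, Slc11a1 was 2.03-fold higher (335 against 165 CPM), Slc40a1 was 5.66-fold lower and Tfrc 3.13-fold lower (6.78 against 21.2 CPM). These are 1 member higher and 2 lower, beside 9.16% of 11793 genes higher and 32.2% lower. The median log2 ratio was -0.61 over the members and -0.55 over all genes. Hmox1 (394 against 600.0 CPM, log2 ratio -0.61) and Fth1 (4268 against 6549 CPM, -0.62) lay near that median of all genes, Blvrb was at 127 against 147 CPM (-0.21) and Cp at 3.47 against 1.90 CPM (0.87, 0.39 to 1.34). The class shares of CTRL were applied over the 3 classes that both libraries held in at least 20 cells. With them the ratio turned to 0.65 for Tfrc, 0.86 for Blvrb, 3.26 for Slc40a1 and -4.66 for Cp. Most of their weight falls on TAM_cycling, with 1457 cells in CTRL and 20 in IRF3/7. Those 20 cells held 3 Tfrc, 44 Blvrb, 12 Slc40a1 and 0 Cp UMIs. The Tfrc and Cp values thus rest on counts no higher than the floor of 3 UMIs. Slc11a1 was below 2-fold as a mean over cells (0.70) and over all cells (0.77), where Tfrc was at -0.27. Size factors from the median of ratios, which centre the genes, differed between the libraries by -0.52 on the log2 scale, and with them 15.6% of genes were higher and 19.6% lower, Hmox1 and Fth1 were at -0.08 and -0.09, and Blvrb changed sign to 0.32. IRF3/7 was also the shallowest library, at a median of 3168 UMIs per cell against 6039.5 to 7502, and the part of depth in these ratios was not tested.

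Between COX2i and CTRL no member was 2-fold higher and 2 were lower, Slc40a1 and Cp (0.704 against 1.90 CPM, 2.70-fold), beside 1.93% of 11905 genes higher and 4.7% lower. The median was -0.11 over the members and 0.01 over all genes. Slc11a1 and Tfrc were higher by 0.22 (0.18 to 0.26) and 0.24 (0.13 to 0.35) on the log2 scale, and Hmox1, Blvrb and Fth1 differed by -0.08, -0.14 and -0.11. Over the alternative ways of processing Hmox1 ran from -0.13 to 0.19 and Fth1 from -0.14 to 0.03, so that both changed sign. The Cp count was 104 UMIs in CTRL and 44 in COX2i, and over all cells of the libraries Cp did not differ, at 5.02 and 5.06 CPM.

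Between COX2i + 5-AZA and CTRL, Slc11a1 was 2.51-fold higher (414 against 165 CPM), and no member was 2-fold lower, beside 5.65% of 12001 genes higher and 11.3% lower. Blvrb was higher by 0.71 (240 against 147 CPM) and Slc40a1 by 0.49 (0.33 to 0.64), Cp differed by 0.16 (-0.22 to 0.53), Fth1 by -0.02, Hmox1 by -0.41 and Tfrc by -0.74. With the class shares of CTRL, Slc11a1 was at 0.63 and Slc40a1 at 1.01, so that the former passed below 2-fold and the latter above it. Under size factors, which differed by -0.16 on the log2 scale, Fth1 was at 0.14.

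Between COX2i + 5-AZA and COX2i, Slc40a1, Cp (3.01-fold, 2.12 against 0.704 CPM) and Slc11a1 (2.16-fold, 414 against 192 CPM) were higher and none was 2-fold lower, beside 6.16% of 11940 genes higher and 9.77% lower. Blvrb was 1.80-fold higher, Tfrc 1.98-fold lower and Hmox1 1.26-fold lower. The median was 0.85 over the members and -0.19 over all genes, and with size factors the split over all genes was 7.57% higher and 7.19% lower. With the class shares of COX2i the log2 ratio was 0.53 for Slc11a1 and -0.35 for Tfrc, and over all cells that of Cp turned to -0.37.

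**Figure D4:**
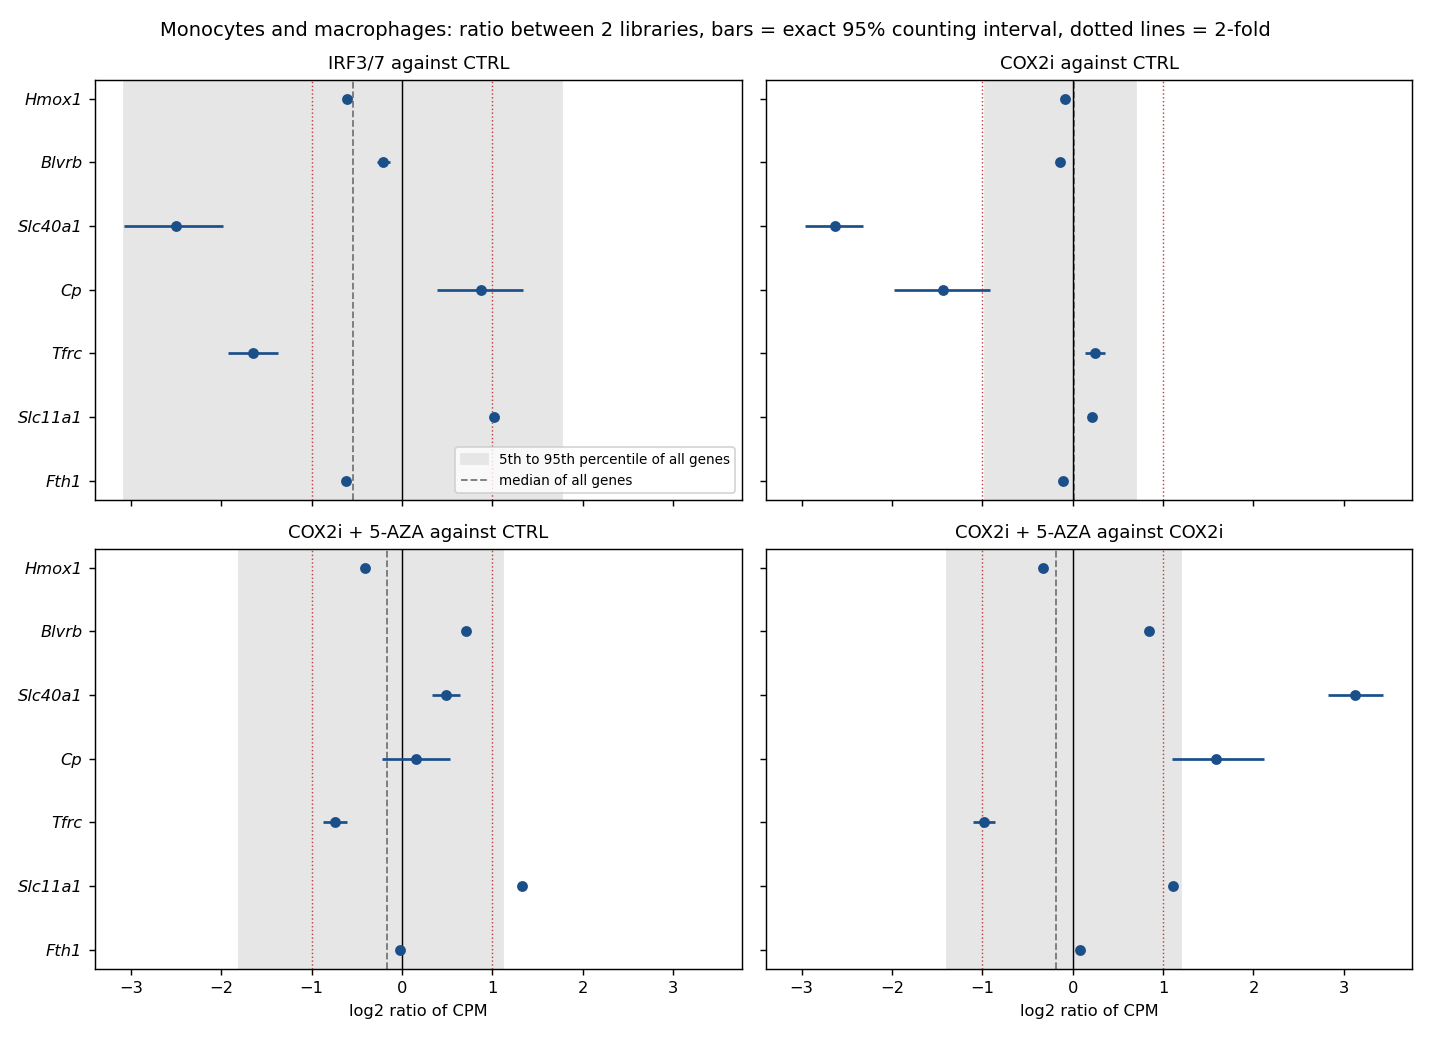
Ratio of CPM between libraries (log2) for the 7 genes in monocytes and macrophages, 1 panel per comparison, with exact 95% counting intervals, dotted lines at 2-fold, a dashed line at the median of all genes and a grey band from their 5th to their 95th percentile. Slc40a1 lies at -2.50, -2.63, 0.49 and 3.12 in the 4 panels.

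**Figure D5:**
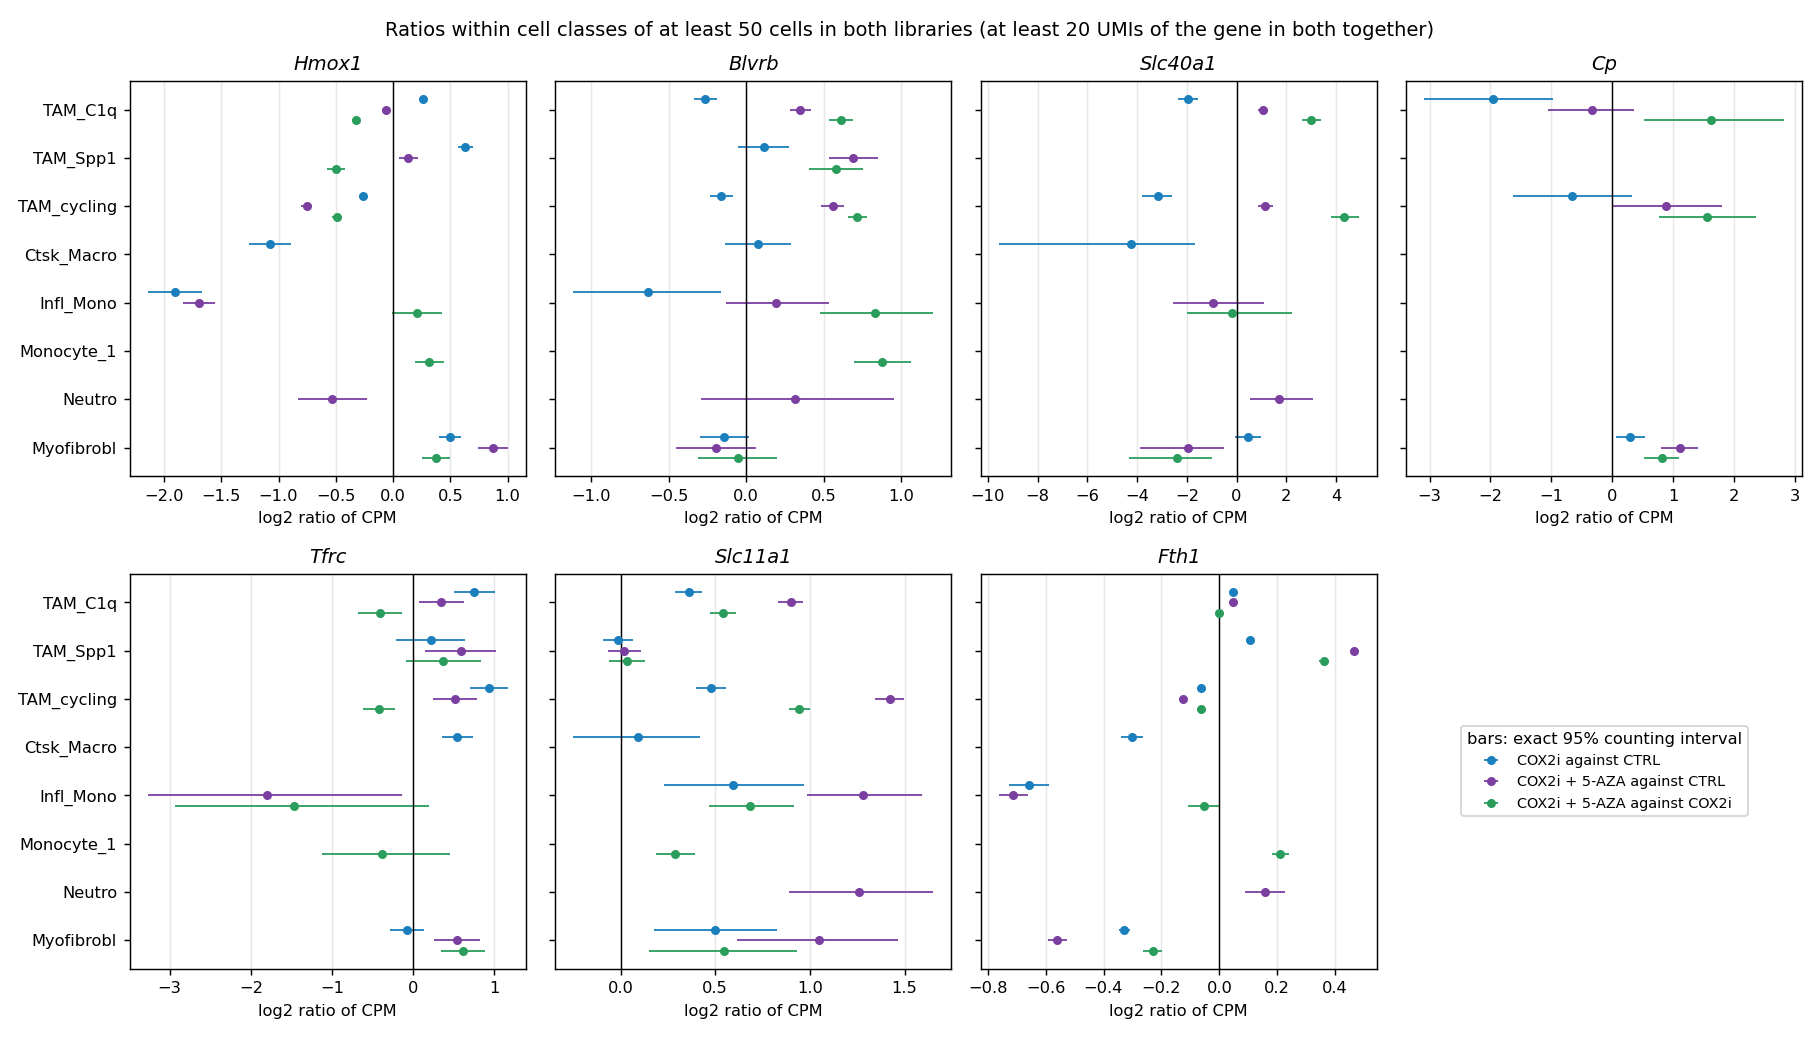
Ratio of CPM between libraries (log2) of each gene within single classes of at least 50 cells in both libraries, for COX2i against CTRL, COX2i + 5-AZA against CTRL and COX2i + 5-AZA against COX2i, with exact 95% counting intervals, shown where the gene had at least 20 UMIs over the pair. In TAM_C1q and TAM_cycling Slc40a1 lies at -1.95 and -3.18 for COX2i against CTRL and at 3.01 and 4.33 for the combination against COX2i, while the Slc11a1 values in TAM_Spp1 are -0.01, 0.02 and 0.03.

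Of 56 other listed genes, those of iron and heme handling and some targets of the stress regulator NRF2, 50 were in the table. In IRF3/7 7 of the 48 counted in that comparison were at least 2-fold higher than in CTRL and 18 lower (14.6% and 37.5%, median -0.54), beside 9.16% and 32.2% of all genes. Genes higher and lower in that comparison were also counted by list, with the members included. They were 2 and 6 of 10 for iron uptake, 0 and 2 of 3 for export, and 0 and 1 of 4 for storage. For heme they were 1 and 4 of 8 for synthesis, 1 and 3 of 7 for uptake and transport, and 0 and 1 of 4 for breakdown. Regulators had 3 and 1 of 7, and NRF2 targets 1 and 2 of 7. None of 5 genes of mitochondrial iron handling differed 2-fold in any of the 4 comparisons. Higher were Lcn2 (328 against 6.79 CPM), the siderophore-binding lipocalin, Hp (805 against 44.5 CPM), which binds free haemoglobin, Gsr, Fbxl5, which marks iron regulatory protein 2 for decay, Bach1, a heme-binding repressor of Hmox1, and Alas1, the first enzyme of heme synthesis, with Spic under 200 UMIs. Neutrophil markers moved with Lcn2 and Hp: the 5 Neutro markers summed to 308 CPM in Infl_Mono of CTRL and 1452 CPM in Infl_Mono of IRF3/7, against 91299 CPM in Neutro of COX2i + 5-AZA, and their part was not tested. Lower were Cd163, the haemoglobin scavenger receptor (0.952 against 74.1 CPM), the metal importers Slc39a8 (log2 ratio -4.43) and Slc39a14 (-1.96), Trf (-2.22), the ferrireductases Steap3 (-2.12) and Steap4 (-1.67), the heme-hemopexin receptor Lrp1 (-1.91), Ncoa4 (-1.82), which delivers ferritin to lysosomes, and Hfe (-1.52), Aco1 (-1.45), Abcg2 (-1.42) and Blvra (-1.19). The heme synthesis enzymes Alad (-1.78), Cpox (-1.13) and Fech (-1.06) and the glutathione synthesis genes Gclc (-1.41) and Gclm (-1.32) were also among those with at least 200 UMIs. All these ratios are pooled over monocytes and macrophages. Of those cells 7475 of 7614 in CTRL were macrophages and 4596 of 5035 in IRF3/7 were monocytes. A difference between these libraries could not be told apart from this change of classes.

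In COX2i no listed gene was 2-fold higher than in CTRL and 8 of 50 were lower (16%), beside 1.93% of all genes higher and 4.7% lower. They were Steap4 (-3.09), Cd163 (-2.39, 14.1 against 74.1 CPM), Lcn2 (-2.22), Hp (-1.76), Trf (-1.54), Gsr (-1.33) and Slc7a11 (-1.20), the cystine transporter, and Spic under 200 UMIs. Trf, transferrin itself, was at 620, 134, 214 and 418 CPM in CTRL, IRF3/7, COX2i and COX2i + 5-AZA. Like Slc40a1 it was lower in COX2i than in CTRL and in the combination, but for Trf CTRL was the highest library. Within classes COX2i was again the lowest of these 3 libraries, at 887, 269 and 808 CPM in TAM_C1q, 388, 201 and 617 CPM in TAM_Spp1 and 484, 208 and 402 CPM in TAM_cycling of CTRL, COX2i and COX2i + 5-AZA. Unlike Slc40a1 it was well expressed in TAM_Spp1.

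In COX2i + 5-AZA against CTRL 3 of 49 listed genes were higher (6.12%), Lcn2 (2.81), Fbxl5 (1.01) and Ltf, and 2 lower (4.08%), Steap4 (-3.54) and Cd163 (-3.05), beside 5.65% and 11.3% of all genes. Cd163 thus stayed low in the combination, at 8.97 CPM, where Slc40a1 and Trf did not. Within TAM_C1q Cd163 was at 121, 24.6 and 9.79 CPM in CTRL, COX2i and COX2i + 5-AZA. Against COX2i alone 6 of 50 were higher (12%), among them Lcn2 (5.03), Hp (2.73), Slc7a11 (2.17) and Gsr (1.99), with Ltf and Spic under 200 UMIs, and 3 lower (6.0%), among them Slc39a14 (-1.18) and Slc39a8 (-1.11), beside 6.16% and 9.77% of all genes. Inside TAM_C1q Slc39a8 was at 25.4 CPM in the combination and 26.7 CPM in COX2i, and Slc39a14 at 98.7 and 182 CPM. TAM_Spp1 held Slc39a14 at 126 and 152 CPM, and Slc39a8 at 1.79 and 4.83 CPM from 9 and 33 UMIs. The pooled drop of Slc39a8 was thus not seen in TAM_C1q. The pool held 4684 monocytes in the combination and 558 in COX2i, and their part was not tested. The Neutro markers again moved with Lcn2, to 4938 CPM in Infl_Mono of the combination against 388 CPM in COX2i. They were at 111 against 38.8 CPM in TAM_C1q, where Lcn2 was at 8.65 against 0.314 CPM.

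The genes whose level followed each member most closely over the 40 class-by-library sums were sought among 9026 genes. For Hmox1 they were Ctsb (Pearson r = 0.91), Lamp1 (0.91) and Maf (0.90), for Blvrb Cln8 (0.89), Acp2 (0.89) and Ctsb (0.84), and for Slc11a1 Cmklr1 (0.91), Hk3 (0.89) and Ctsc (0.89). For Tfrc they were Pdhb (0.86), Bzw2 (0.85) and Sept11 (0.84), for Cp C1qtnf1 (0.85), Laptm4a (0.82) and Epb41l1 (0.79), and for Fth1 Tgfbi (0.87), Dmxl2 (0.87) and Soat1 (0.84). Slc40a1 had no close companion, with Adipor1 at 0.73, Slc27a4 at 0.63 and Wwp2 at 0.62. Many of its sums held few or no UMIs, such as 0 in cDC2 and 1 in TAM_Spp1 of COX2i. The part of this in its lower r was not tested. Among the members Slc11a1 ran with Blvrb (0.77) and Hmox1 (0.65), Fth1 with Hmox1 (0.64), and Tfrc against Slc11a1 (-0.40). These values describe sums that share libraries, classes and depth.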

How the data were processed

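CD45+ cells of 4 libraries, 1 per group and 3 pooled tumours each, were fixed for 22 h and assayed with Chromium Flex, which counts ligated probe pairs by UMI. The authors used cellranger multi (Cell Ranger 7.1.0, mm10 probe set), filtered cells on detected genes and mitochondrial and ribosomal content, removed ribosomal and mitochondrial genes and annotated classes after Harmony integration. The authors deposited unnormalized UMI counts for each cell, whose annotated classes were used as given. Doublet treatment was not stated and none were removed here. Library totals are those of the 12584 deposited genes and not the full depth.

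Counts were summed per class and library (Python 3.11.15, numpy 2.4.6, scipy 1.17.1, pandas 2.3.3), giving CPM with exact Poisson intervals, log2 ratios with exact conditional intervals, and Clopper-Pearson intervals for shares after thinning each cell to 1500 UMIs. Intervals and the floor of 3 UMIs per library cover counting error only. The scripts were tested on simulated counts. The members and gene lists were chosen with earlier results of these data known. Named were all members, list genes at least 2-fold different with at least 200 UMIs, and for each member the 3 genes of highest Pearson r of log2(CPM + 1) over sums of at least 50 cells, among genes with a mean of at least 10 CPM. List genes under 200 UMIs were named after their values were seen, where a count needed them, and 1 list gene that the rule names is not reported here. Positions and hairpins came from GRCm38 with the GENCODE annotation. Alternatives were size factors, totals without ferritin or the 50 highest genes, class shares of the reference library, cells with more than 2000 genes, no top 1% of cells by UMIs, means over cells, all cells, and other UMI minimums.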

Additional observations from a re-analysis of the deposited data

Results flagged for a closer look

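In 8 cases 1 gene moved in opposite directions in 2 classes under the same comparison, each with an interval that leaves out 0. With 1 library per group the difference between the classes was not tested. All values are log2 ratios of CPM. The CTRL cells of Infl_Mono and Neutro, the reference of several of them, carried the TAM_C1q markers at 79.8% and 55.9% of the TAM_C1q level, and the part of this was not tested.

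Hmox1 was at 0.63 in TAM_Spp1 and -1.90 in Infl_Mono for COX2i against CTRL, and at 0.87 in Myofibrobl and -1.69 in Infl_Mono for COX2i + 5-AZA against CTRL. Both Infl_Mono values have the 93 CTRL cells as their reference, in which 2 cells held at least 50% of the Hmox1 UMIs. Slc40a1 was at 1.7 in Neutro and -1.95 in Myofibrobl for COX2i + 5-AZA against CTRL, and at 4.33 in TAM_cycling and -2.40 in Myofibrobl for COX2i + 5-AZA against COX2i. The Neutro and Myofibrobl values rest on 7 UMIs in CTRL and 4 UMIs in COX2i + 5-AZA. Cp was at 1.71 in Myofibrobl and -2.93 in Infl_Mono for IRF3/7 against CTRL, the latter from 16 and 4 UMIs. Tfrc was at 0.59 in TAM_Spp1 and -1.80 in Infl_Mono for COX2i + 5-AZA against CTRL, the latter from 14 and 6 UMIs. Tfrc was also at 0.62 in Myofibrobl and -1.16 in NK_cells for COX2i + 5-AZA against COX2i, where COX2i held 50 NK cells. Slc11a1 was at 1.09 in cDC2 and -1.41 in Myofibrobl for IRF3/7 against CTRL.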

How the results depend on the processing

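No paired analysis was possible because each group has 1 library, and for the same reason no library could be left out. The number of members past 2-fold in monocytes and macrophages was 3 for IRF3/7 against CTRL (2 to 4 over the alternatives), 2 for COX2i against CTRL, 1 for COX2i + 5-AZA against CTRL and 3 for COX2i + 5-AZA against COX2i (2 to 4). For COX2i against CTRL it was 1 over all cells and 1 with a minimum of 200 UMIs, since Cp was then not past 2-fold or not counted. The Cp log2 ratio turned over all cells. It went to 0.00944 for COX2i against CTRL, and for COX2i + 5-AZA to -0.36 against CTRL and -0.37 against COX2i. With the class shares of CTRL, IRF3/7 against CTRL turned to 3.26 for Slc40a1, 0.65 for Tfrc, 0.86 for Blvrb and -4.66 for Cp. That alternative covers 3 classes with 20.9% of the CTRL and 91.5% of the IRF3/7 cells. The Tfrc and Cp values rest on 3 and 0 UMIs in 20 TAM_cycling cells of IRF3/7. Of 72 alternative values of the member ratios past 2-fold, 63 stayed past 2-fold and 4 turned, and of 152 values of the others, 5 passed 2-fold and 10 changed sign. In cells with more than 2000 genes the mean Slc40a1 level of Neutro was 19.3 in place of 48.1 CPM, and other classes were higher, TAM_C1q in COX2i + 5-AZA and Monocyte_3 from 1 UMI in 8 cells. Depth limited Slc40a1 and Cp most, which had 31 and 62 UMIs in the monocytes and macrophages of IRF3/7.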
